A study of Mus musculus with 2 samples.

Results

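The galectin genes of B16F10 melanoma cells were described across sites and hosts: Lgals1, Lgals3, Lgals7, Lgals8, Lgals9 and Lgals3bp, 6 of the 32285 genes in the deposited table, found by their symbols. B16F10 is a mouse melanoma line, and the cells here were recovered from tumours as GFP+CD45-DAPI- cells, so the sort removed dead cells and blood cells. There were 3 sources: lungs of wild-type mice (WT lung), lungs of mice without perforin (Prf1-/- lung), and knee bones of mice without perforin (Prf1-/- bone). Perforin, the product of Prf1, is the pore protein of cytotoxic lymphocytes. All sources carried the same tumour line, and bone in wild-type mice was not among them, so Prf1-/- bone and WT lung differed in both genotype and site. Enzyme digestion at 37 °C lasted 20 min for lung and 30 min for knee, and its effect cannot be told apart from that of site. How many mice stood behind a source is not stated in the labels.

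Galectins are small proteins that bind galactose-containing sugars on glycoproteins. Galectin-1 and galectin-7 are prototype galectins with a single sugar-binding domain, galectin-3 is a chimera type that forms larger complexes through its tail, and galectin-8 and galectin-9 are tandem-repeat types with a pair of linked domains. They act outside the cell on T cells, matrix and adhesion receptors, and inside it on damaged membranes. The product of Lgals3bp is not a galectin but a secreted glycoprotein that galectins bind.

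The sources were marked with 3 hashtag antibodies, pooled and run once, which gave 1 RNA library and 1 hashtag library. Of 15961 barcodes in the RNA library, 4204 were shared with the hashtag library and 11757 (73.7%) were unlisted there, so their source is unknown. After removing barcodes with under 1000 genes or over 15% mitochondrial UMIs (unique molecular identifiers, 1 for each captured RNA molecule), a barcode joined a source when its largest hashtag count was at least 2 times the second. This left 1227 WT lung, 1520 Prf1-/- lung and 385 Prf1-/- bone cells, besides 6270 unlisted cells and 242 with no clear hashtag, which were left out. Median depths were 2909, 2826.5, 3107 and 2418 UMIs per cell in that order. Each source was 1 hashtag group without replicates, so no test between sources was possible. Levels are summed UMIs scaled to CPM (counts per 1000000 UMIs of the set), with exact 95% Poisson intervals that cover counting error only, as do all other intervals. UMIs were not divided by gene length. Levels of the galectin genes were compared between sets of cells and not between genes. Other lists were ranked by level only to choose genes to name. Melanoma markers led by Dct and Pmel summed to between 10630 and 14170 CPM in the 4 sets.

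**Figure D1:**
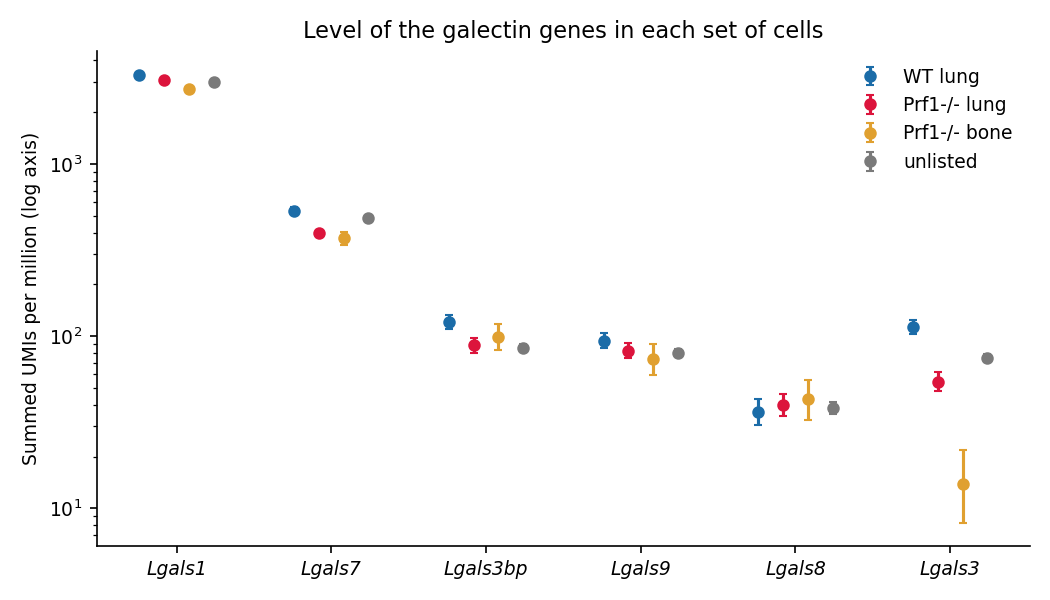
CPM of summed UMIs (log axis) of each galectin gene in WT lung, Prf1-/- lung, Prf1-/- bone and unlisted cells, with exact 95% Poisson intervals. Lgals3 spans 112.8 CPM in WT lung to 13.9 CPM in Prf1-/- bone, while the sets lie closer together for the other genes.

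Lgals1 (chr15:78926725-78930465) was found in nearly every melanoma cell. Its level was 3310 CPM (3253 to 3368) in WT lung, 3075 (3025 to 3125) in Prf1-/- lung, 2723 (2634 to 2815) in Prf1-/- bone and 3011 (2985 to 3038) in unlisted cells. WT lung was highest and Prf1-/- bone lowest, and the intervals of the 3 sources did not overlap, though Prf1-/- lung and the unlisted cells did. Between 99.2% and 99.7% of the cells of each set had a Lgals1 UMI. The median cell of WT lung held 9 Lgals1 UMIs, with 4 at the 10th percentile and 18 at the 90th. The ratio of Prf1-/- lung to WT lung was 0.929 (0.907 to 0.951), and that of Prf1-/- bone to Prf1-/- lung was 0.886 (0.853 to 0.919).

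Lgals7 (chr7:28863796-28866285) encodes galectin-7, which is best known from stratified epithelia such as skin and as a p53-induced gene. Its level was 537 CPM (514 to 561) in WT lung, 397 (379 to 415) in Prf1-/- lung, 370 (338 to 405) in Prf1-/- bone and 489 (478 to 500) in unlisted cells. Both perforin-null sources were thus below WT lung, and their own intervals overlapped. The ratio to WT lung was 0.739 (0.694 to 0.787) for Prf1-/- lung and 0.689 (0.623 to 0.762) for Prf1-/- bone. A Lgals7 UMI was present in 57.3% of WT lung, 47.4% of Prf1-/- lung, 59.2% of Prf1-/- bone and 52.9% of unlisted cells. With every cell thinned to 1500 UMIs, these shares were 40.7%, 35.2%, 35.8% and 41.2%, and the 2 perforin-null sources then had overlapping intervals (32.8% to 37.7% and 31.1% to 40.9%). Keratinocyte markers were nearly absent: Krt5, Krt15 and Trp63 had no UMI in any set, and the list of 6 genes summed to between 0.423 and 2.31 CPM.

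Lgals3 (chr14:47373860-47386167) encodes galectin-3, long used as a macrophage marker under the name Mac-2. It differed most between the sources. Its level was 112.8 CPM (102.5 to 123.9) in WT lung, 54.6 (48.1 to 61.7) in Prf1-/- lung, 13.9 (8.21 to 21.9) in Prf1-/- bone and 74.9 (70.7 to 79.2) in unlisted cells. The order was WT lung, unlisted, Prf1-/- lung and Prf1-/- bone, with no overlap between any pair of intervals. Poisson intervals take UMIs as independent, but Lgals3 UMIs were concentrated in few cells, so these intervals are too narrow. A Lgals3 UMI was present in 11.2% of WT lung cells (9.53% to 13.2%), 5.86% of Prf1-/- lung (4.73% to 7.16%), 2.60% of Prf1-/- bone (1.25% to 4.73%) and 7.27% of unlisted cells (6.64% to 7.94%). By share, the interval of WT lung was clear of the other sets, while those of Prf1-/- lung and unlisted cells overlapped. With every cell thinned to 1500 UMIs the shares were 7.74%, 3.95%, 1.56% and 5.41%, in the same order as the levels.

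The tandem-repeat galectins varied little. Lgals8 (chr13:12439402-12464977), whose product marks damaged vesicles for autophagy, was at 36.5 CPM (30.7 to 43.0) in WT lung, 40.0 (34.5 to 46.1) in Prf1-/- lung, 43.1 (32.6 to 56.0) in Prf1-/- bone and 38.2 (35.2 to 41.3) in unlisted cells. All 4 intervals overlapped. Lgals9 (chr11:78962979-78984924), whose product binds receptors on T cells, was at 94.4 CPM (85.0 to 104.6), 82.3 (74.3 to 90.9), 73.9 (59.8 to 90.2) and 80.0 (75.8 to 84.5) in the same order. WT lung was highest, and the intervals of neighbouring sets overlapped.

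Lgals3bp (chr11:118392747-118401959) was at 121.1 CPM (110.3 to 132.6) in WT lung, 88.7 (80.4 to 97.6) in Prf1-/- lung, 99.3 (82.9 to 118.0) in Prf1-/- bone and 85.4 (81.0 to 90.01) in unlisted cells. WT lung stood above Prf1-/- lung, with a ratio of 0.732 (0.640 to 0.837) between them, while Prf1-/- bone overlapped both. A UMI was present in 30.7% of WT lung, 22.7% of Prf1-/- lung, 27.0% of Prf1-/- bone and 18.98% of unlisted cells, and at 1500 UMIs per cell in 17.9%, 11.7%, 15.1% and 11.7%.

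Of the other galectin genes listed, Lgalsl, which encodes a galectin-related protein, was at 54.6 CPM in WT lung, 59.5 in Prf1-/- lung, 43.9 in Prf1-/- bone and 49.2 in unlisted cells. Lgals2 and Lgals4 stayed under 1 CPM in every set. Lgals12 and Grifin had no UMI, which allows up to 0.776, 0.635, 2.31 and 0.182 CPM in the 4 sets if 3 UMIs of each total are taken as the limit.

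The first comparison set the tumour cells of Prf1-/- lung against those of WT lung. A gene was counted when its mean over both groups was at least 10 CPM and its ratio was at least 1.5-fold in either direction. Of the 6 galectin genes, 1 was lower in Prf1-/- lung, Lgals3 with a ratio of 0.484 (0.413 to 0.566), and 0 were higher. Over all 7748 genes measured, 1.11% were lower and 0.71% higher by this rule. The median log2 ratio of the 6 genes was -0.32, and that of all genes was 0.00.

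Between the perforin-null sites, Lgals3 was again the 1 galectin gene counted. Its ratio of Prf1-/- bone to Prf1-/- lung was 0.254 (0.148 to 0.409), against 7.39% of 7695 genes lower and 3.81% higher. This ratio rested on 18 Lgals3 UMIs in Prf1-/- bone, 8 of them in 1 cell. Without the cell with the most Lgals3 UMIs in each group, the ratio was 0.149. The other 5 galectin genes had ratios between 0.886 (Lgals1) and 1.12 (Lgals3bp, 0.912 to 1.37). Their median log2 ratio with Lgals3 was -0.13, against -0.03 over all genes.

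Prf1-/- bone against WT lung shares its groups with the 2 comparisons above. Lgals3 had a ratio of 0.123 (0.0721 to 0.196) and was the only galectin gene counted, with 8.04% of 7707 genes lower and 3.79% higher. Lgals7 was just short of the limit at 0.689. Unlisted cells against all cells with a called hashtag gave no galectin gene past 1.5-fold, against 0.207% of 7738 genes lower and 0.0905% higher. Lgals3 had a ratio of 1.04 there, and Lgals3bp had the lowest at 0.832 (0.767 to 0.902).

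**Figure D2:**
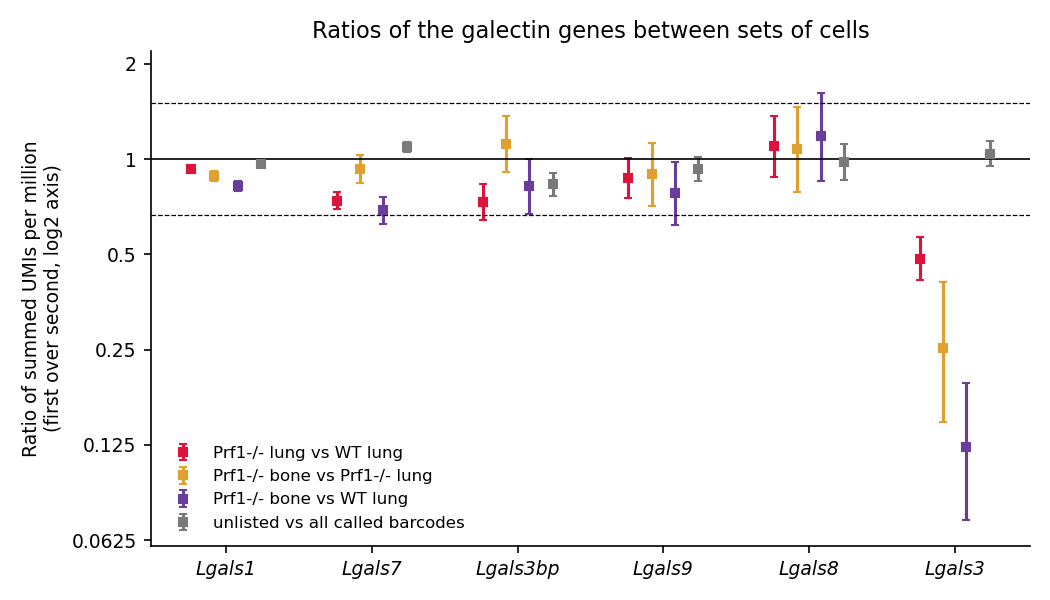
Ratio of CPM (log2 axis) of each galectin gene in 4 comparisons, with exact 95% conditional binomial intervals; the solid line is a ratio of 1 and the dashed lines are 1.5-fold. Lgals3 lies below the lower dashed line in the 3 comparisons between sources and at 1.04 between unlisted and called cells.

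The galectin genes differed in how their UMIs were spread over cells, and Lgals3 was concentrated in few of them. In WT lung the 22 richest of 1227 cells held at least as many of the 436 Lgals3 UMIs as all other cells together, and the richest cell held 27. The 52 cells with 3 or more UMIs (4.24%, 3.18% to 5.52%) carried 74.5% of the gene's UMIs. In Prf1-/- lung, 29 cells (1.91%, 1.28% to 2.73%) had 3 or more and carried 73.6% of 258 UMIs. In Prf1-/- bone 1 of 385 cells reached 3 UMIs (0.260%, up to 1.44%), and among unlisted cells 137 did (2.19%, 1.84% to 2.58%). The share of such cells was thus highest in WT lung, with an interval clear of Prf1-/- lung and unlisted cells. These counts were not thinned, and unlisted cells were shallower (median 2418 UMIs against 2909 in WT lung).

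The variance over the mean of UMIs thinned to 1500 per cell is 1 where cells differ by chance sampling alone. For Lgals3 it was 3.55 in WT lung, 3.71 in Prf1-/- lung, 1.73 in Prf1-/- bone and 4.08 in unlisted cells. Of 1256 genes whose thinned mean in WT lung was within 1.5 times that of Lgals3, 1 had a higher value, the interferon-induced gene Rsad2, and their median was 1.02. After thinning, 7.74% of WT lung cells had a Lgals3 UMI, whereas a Poisson distribution of the same mean would give 14.7%. The intervals of Lgals3 levels and ratios assume a variance over mean of 1, so they are too narrow.

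Lgals7 also varied between cells, with 2.29 in WT lung, 1.99 in Prf1-/- lung, 1.64 in Prf1-/- bone and 2.10 in unlisted cells. In WT lung 1 of 238 genes of like mean was higher, Hspb1, which encodes a small heat shock protein. A Lgals7 count of 3 or more was reached by 23.6% of WT lung cells (21.3% to 26.1%), 18.3% of Prf1-/- lung, 16.1% of Prf1-/- bone and 17.8% of unlisted cells. Lgals1 had values between 1.67 and 1.80, with 10 of 64 genes of like mean higher in WT lung. The intervals of Lgals7 and Lgals1 levels and ratios are thus too narrow as well. Lgals8 (0.951 to 1.04), Lgals9 (0.998 to 1.09) and Lgals3bp (0.965 to 1.14) were nearer to 1. Among unlisted cells, though, 81 of 1525 genes of like mean were above Lgals9 (1.09) and 121 of 1450 above Lgals3bp (1.07), so both stood in the upper part of genes of like mean there. In WT lung Lgals3bp was low, with 952 of 1039 genes above it.

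**Figure D3:**
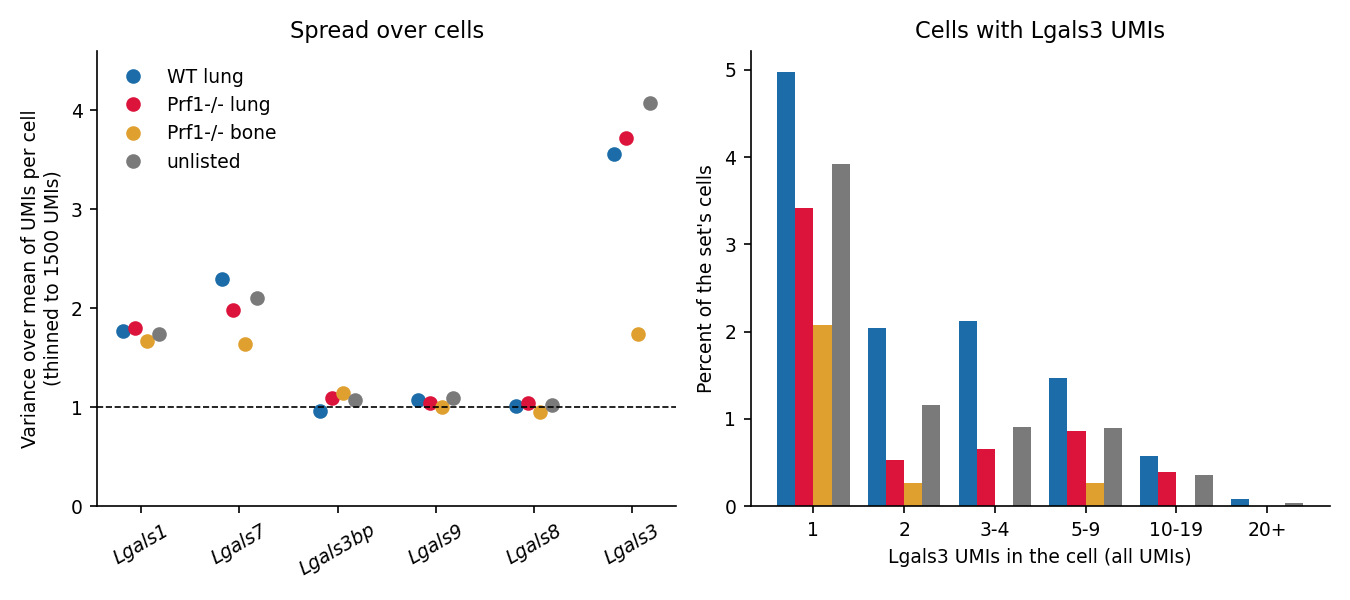
Left, variance over mean of UMIs per cell thinned to 1500 UMIs for each gene and set, with the dashed line at 1. Right, percent of the cells of each set by their number of Lgals3 UMIs, from 1 to 20 or more. Lgals3 reaches 4.08 in unlisted cells, Lgals7 reaches 2.29 in WT lung, and Lgals8, Lgals9 and Lgals3bp lie near 1.

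Co-expression was measured within each set by the correlation of depth-adjusted residuals of UMI counts, averaged over the 4 sets. Cells of a set share the library and its depth, so these are descriptions over 1227, 1520, 385 and 6270 cells. Among 5776 genes with a UMI in at least 5% of cells, the gene most like Lgals1 by this measure was Lgals7, and the gene most like Lgals7 was Lgals1. Their mean correlation was 0.312, from 0.292 in Prf1-/- bone to 0.342 in WT lung. By a rank correlation Lgals7 was still the gene most like Lgals1 (0.264). Lgals1 was then only rank 4 for Lgals7, after Tmsb4x (0.344), Hspb1 (0.318) and Rhox5 (0.292). The values that follow are by residuals. The next genes like Lgals1 were Vim (0.288), which encodes the filament protein vimentin, Emp3 (0.278), Cd63 (0.252) and S100a6 (0.241). Those like Lgals7 were Hspb1 (0.282), S100a6 (0.254), the actin-binding Tmsb4x (0.251) and Crip1 (0.227). Least like Lgals1 were Npm1 (-0.194) and Hspd1 (-0.188), a nucleolar and a mitochondrial chaperone. Least like Lgals7 were Car6 (-0.207) and H2afz (-0.200), a histone variant.

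Lgals3 was nearer to Lgals7 (0.141, rank 7 of 5776) and Lgals1 (0.112, rank 13) than to most genes. Its most like genes were Emp1 (0.219), S100a6 (0.201), Crip1 (0.198), Tagln2 (0.151) and S100a10 (0.148). Emp1 leads through Prf1-/- bone, where the correlation was 0.544 on 18 Lgals3 UMIs, against 0.181 in Prf1-/- lung, 0.0866 in WT lung and 0.0631 in unlisted cells. S100a6 and Crip1 were between 0.141 and 0.278 in all 4 sets. Their highest values, 0.265 and 0.278, were also in Prf1-/- bone, on the same 18 UMIs. In the other sets they were between 0.141 and 0.231. Least like Lgals3 were Fth1 (-0.0789), a ferritin chain, and Enho (-0.0706), values too weak to read.

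Cells with a Lgals3 UMI had Lgals7 more often. At 1500 UMIs per cell in WT lung, 62.1% of 95 cells with Lgals3 had a Lgals7 UMI (51.6% to 71.9%), against 38.9% of 1132 cells without it (36.0% to 41.8%). In Prf1-/- lung these shares were 51.7% of 60 cells (38.4% to 64.8%) and 34.5% of 1459 (32.1% to 37.1%), and in unlisted cells 61.1% of 339 (55.6% to 66.3%) and 40.0% of 5925 (38.8% to 41.3%). The intervals did not overlap in these 3 sets. Prf1-/- bone had 6 such cells, too few to compare. Shares of Lgals8 and Lgals9 had overlapping intervals between cells with and without Lgals3 in all 4 sets.

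The levels followed the same order. In WT lung Lgals7 was at 475.8 CPM (452.8 to 499.6) in the 1089 cells with no Lgals3 UMI, 920.0 (813 to 1037) in the 86 cells with 1 or 2, and 1039 (900 to 1194) in the 52 cells with 3 or more. Lgals1 was at 3215, 3780 and 4288 CPM in these cells, and S100a6, a calcium-binding protein gene, at 154.3, 286.0 and 517 CPM. In Prf1-/- lung Lgals7 went from 371.7 to 738 and 814 CPM, and S100a6 from 166.1 to 341.8 and 613 CPM. The melanoma gene Pmel was at 3155 CPM (2908 to 3417) in the WT lung cells with 3 or more Lgals3 UMIs and 3478 (3416 to 3542) in those without Lgals3. Mlana was lower, at 1463 CPM (1296 to 1644) against 2186 (2136 to 2236), and in unlisted cells at 1567 (1444 to 1697) against 1811 (1789 to 1832), while in Prf1-/- lung it was at 2040 (1769 to 2341) and 2111 (2069 to 2154). Of the 8 macrophage markers, 6 were at 0 in WT lung, Csf1r, Adgre1 and Marco among them, and the list summed to 22.5 CPM there, 7.83 in Prf1-/- lung, 13.1 in Prf1-/- bone and 8.63 in unlisted cells. Lyz2, a lysozyme gene of macrophages and alveolar cells, led the list in WT lung at 17.9 CPM. It was at 1.90 in Prf1-/- lung and 1.54 in Prf1-/- bone, lower there as Lgals3 was. Fcer1g, of the same list, ran the other way, at 4.66, 5.50 and 10.8 CPM in these sources, highest where Lgals3 was lowest. Lgals3 was at 259.1 CPM (158.3 to 400.2, 20 UMIs) in the 22 WT lung cells with 2 or more UMIs of other cell types and at 109.8 (99.5 to 120.9) in the rest. In Prf1-/- lung these levels were 127.1 CPM (58.1 to 241.3, 9 UMIs) and 53.5 (47.0 to 60.6). The share of cells with a Lgals3 UMI differed less, at 13.6% of the 22 WT lung cells and 11.2% of the rest. Unlisted cells ran the other way, at 34.25 CPM (14.8 to 67.5, 8 UMIs) in 82 such cells and 75.4 (71.3 to 79.8) in the rest. Prf1-/- bone had 0 Lgals3 UMIs in 7 such cells. Without such cells the ratio of Lgals3 between Prf1-/- lung and WT lung was 0.487.

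Cells grouped by Lgals7 also differed in Kcnj13, a potassium channel gene, and in Spp1. Both were picked with earlier results of these data known, and neither was among the 5 genes most like Lgals7. In WT lung Kcnj13 was at 52.7 CPM in cells with no Lgals7 UMI and 142.8 in those with 3 or more, and Spp1, which encodes osteopontin, at 81.3 and 199.3 CPM. Prf1-/- lung gave 38.7 and 125.0 CPM for Kcnj13, but Prf1-/- bone gave 147.5 and 148.4 CPM for Kcnj13 and 256.2 and 195.0 CPM for Spp1. Mlana, a melanosome gene chosen after its values were seen, ran the other way, at 2727 CPM (2646 to 2810) in cells without Lgals7 and 1495 (1420 to 1574) in those with 3 or more. For Mlana, Prf1-/- lung gave 2475 and 1537 CPM, unlisted cells 2193 and 1327, and Prf1-/- bone 1432 and 1217 with overlapping intervals (1328 to 1543 and 1080 to 1366).

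**Figure D4:**
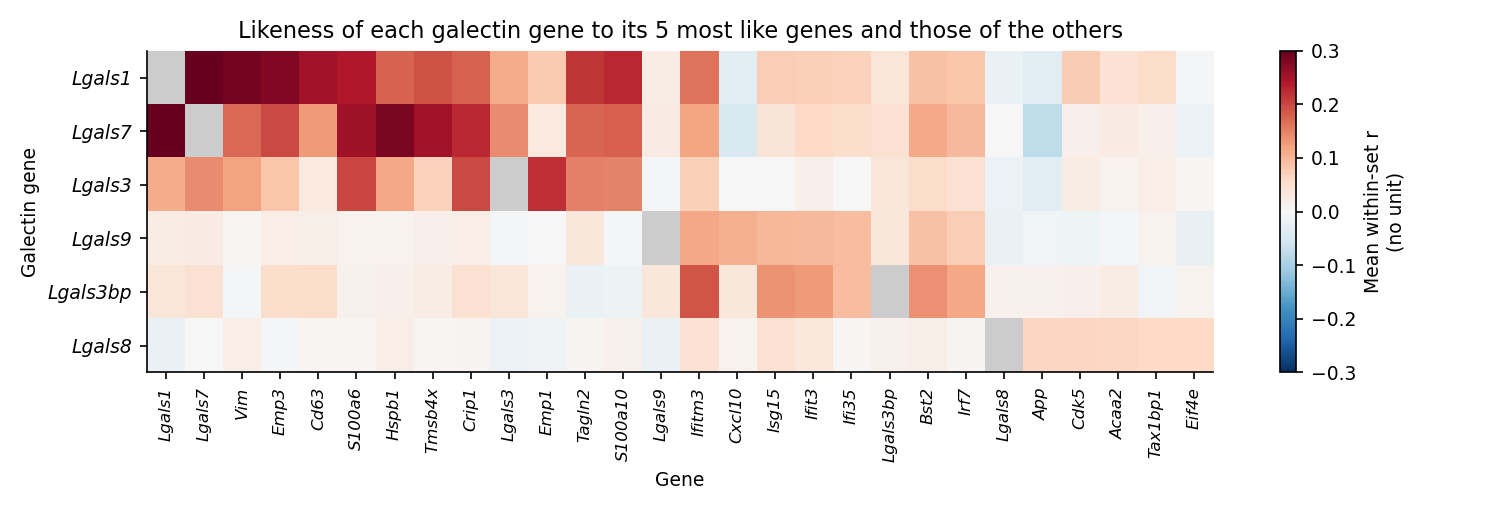
Mean within-set correlation of each galectin gene (rows) with the genes most like any of them (columns), from blue at -0.3 to red at 0.3, grey for a gene with itself. Lgals1, Lgals7 and Lgals3 share a block that holds S100a6 and Crip1, Lgals9 and Lgals3bp share one with Ifitm3, Isg15 and Ifit3, and Lgals8 has no value above 0.0654.

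The genes most like Lgals9 and Lgals3bp were interferon-induced. The genes most like Lgals3bp were Ifitm3 (0.188), Bst2 (0.136), Isg15 (0.134), Ifit3 (0.127) and Irf7 (0.117), and those most like Lgals9 were Ifitm3 (0.116), Cxcl10 (0.106), Isg15 (0.10), Ifit3 (0.0972) and Ifi35 (0.0916). These genes serve antiviral defence, apart from the chemokine gene Cxcl10, and Irf7 encodes a transcription factor of the interferon response. All 5 values of Lgals3bp were positive in every set, while Lgals9 with Isg15 was -0.00518 in Prf1-/- bone. Such values were not particular to these genes: Ifitm3 had mean correlations of 0.163 with Lgals1 and 0.119 with Lgals7, above its 0.116 with Lgals9, and Bst2 had 0.0881 and 0.114. Least like Lgals3bp were Ybx3 (-0.0827) and Ybx1 (-0.0709), and least like Lgals9 were Car6 (-0.0552) and Dctpp1 (-0.0547), all weak. Lgals9 and Lgals3bp had a mean correlation of 0.0342 with each other, rank 211 of 5776 from Lgals9. At 1500 UMIs per cell, 14.9% (12.3% to 17.8%) of unlisted cells with Lgals9 had a Lgals3bp UMI, against 11.3% (10.5% to 12.2%) of those without. The intervals overlapped in the 3 sources, where the shares were 21.4% and 17.4% (WT lung), 11.8% and 11.6% (Prf1-/- lung) and 8.70% and 15.9% (Prf1-/- bone). Lgals8 had no gene above 0.0654 (App), so nothing is read from its list, which went on with Cdk5, Acaa2, Tax1bp1 and Eif4e, nor from Pclaf (-0.0650) and Srsf2 (-0.0598) at its other end.

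Cells with a Lgals3bp UMI had more interferon-induced RNA. In WT lung Ifit3 was at 261.2 CPM (233.8 to 290.8) in 377 cells with a Lgals3bp UMI and 149.9 (135.4 to 165.6) in 850 cells without, and Isg15 at 129.8 (110.8 to 151.2) and 63.2 (53.9 to 73.7). In Prf1-/- lung Ifit3 was at 170.6 and 79.8 CPM, in Prf1-/- bone at 141.8 and 88.6, and in unlisted cells at 178.2 and 86.3. The intervals overlapped in Prf1-/- bone only. Such a rise was not particular to Lgals3bp. In WT lung cells with no Lgals3 UMI, Ifit3 was at 172.3 CPM (158.6 to 186.9). It was at 282.6 (224.7 to 350.7) with 1 or 2 Lgals3 UMIs and 292.5 (221.0 to 379.8) with 3 or more. Prf1-/- lung gave 96.3, 198.2 and 170.9 CPM, and unlisted cells 102.3, 146.2 and 111.9 (81.0 to 150.8). In Prf1-/- bone the 9 cells with 1 or 2 Lgals3 UMIs held 0 Ifit3 UMIs.

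The promoters of these 2 genes are shown because the genes most like them within sets were interferon-induced. Promoters of interferon-induced genes often hold the interferon-stimulated response element bound by interferon regulatory factors. Whether the element acts on either gene in these cells was not tested. RefSeq windows of GRCm38.p6 run from 250 bases before the start site to 50 after it, and the sequences are 5′ to 3′ on the gene's strand, with matches to the element (GAAA, any 2 bases, GAAA) or to its core (AANNGAAA), on either strand, in capitals. The core lies within the full element, and was added after the Lgals3bp window had been read. Lgals9 is at chr11:78984875-78985174 and Lgals3bp at chr11:118401910-118402209, both on the minus strand.
Lgals9: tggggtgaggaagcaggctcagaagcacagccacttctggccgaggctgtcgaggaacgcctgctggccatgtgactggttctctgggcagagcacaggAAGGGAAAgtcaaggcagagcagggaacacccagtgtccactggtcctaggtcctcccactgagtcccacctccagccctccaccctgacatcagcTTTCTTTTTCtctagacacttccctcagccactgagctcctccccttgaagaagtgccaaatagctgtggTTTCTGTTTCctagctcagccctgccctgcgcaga
Lgals3bp: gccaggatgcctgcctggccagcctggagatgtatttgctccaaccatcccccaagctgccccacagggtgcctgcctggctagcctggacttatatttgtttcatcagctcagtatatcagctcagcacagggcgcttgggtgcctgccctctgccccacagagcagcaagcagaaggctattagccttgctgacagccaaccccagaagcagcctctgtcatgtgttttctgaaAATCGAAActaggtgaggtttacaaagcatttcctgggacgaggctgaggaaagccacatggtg

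Lgals9 held the full element at 2 places, from -55 to -46 and from 16 to 25 relative to the start site, both on the opposite strand, and a further core match at -151 to -144. Lgals3bp held only the core, at -14 to -7. Of 32851 promoters of the same length, 3.44% held the full element and 23.9% held the core. Among the 21 promoters found for 25 interferon-induced genes listed, 8 held the full element and 11 the core. Windows were found for 5 of the 6 galectin genes, and those of Lgals3, Lgals7 and Lgals8 held neither motif. The windows of Lgals7 (chr7:28864136-28864435) and Lgals8 (chr13:12461689-12461988) lay inside the gene spans given above. They did not cover the 5′ ends of those spans.

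The interferon-induced list gives the setting for both genes. In Prf1-/- lung against WT lung, 14 of its 25 measured genes were lower and 0 higher by the 1.5-fold rule, against 1.11% and 0.71% of all genes, with a median log2 ratio of -0.63 against 0.00 over all genes. Psmb8, an immunoproteasome subunit, had a ratio of 0.486 (0.426 to 0.554), Ifit3 one of 0.548 (0.487 to 0.616) and the sensor gene Zbp1 one of 0.475 (0.379 to 0.592). Lgals3bp (0.732) and Lgals9 (0.872, 0.754 to 1.01) did not reach 1.5-fold. In Prf1-/- bone against Prf1-/- lung, 9 of 25 were higher and 1 lower, against 3.81% and 7.39% of all genes, and the median log2 ratio was 0.23 against -0.03 over all genes. Psmb8 was at 3.69 (3.18 to 4.27) and Iigp1 at 2.61 (2.15 to 3.17), while Lgals3bp was at 1.12 and Lgals9 at 0.898 (0.710 to 1.13). The 2 most abundant genes of the list, Ifitm3 and Ifi27, were at 1269 and 876 CPM in WT lung and at 981 and 805 CPM in Prf1-/- lung.

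Genes that build or trim the sugars galectins bind were compared next. Of 20 measured in Prf1-/- lung against WT lung, 1 was lower, St6gal1, at 15.7 and 26.4 CPM (ratio 0.593, 0.434 to 0.808), against 1.11% of all genes, and 0 were higher. The median log2 ratio of the list was 0.05. St6gal1 encodes a sialyltransferase that caps galactose and so blocks many galectins. In Prf1-/- bone against Prf1-/- lung, 5 of 19 were lower and 0 higher, against 7.39% and 3.81% of all genes, with a median log2 ratio of -0.37 against -0.03 over all genes. They were Mgat5, whose product makes the branched N-glycans preferred by galectin-3, at 54.6 and 95.0 CPM (ratio 0.575, 0.441 to 0.740), the poly-lactosamine enzyme gene B3gnt2 (0.488, 0.333 to 0.696), St6gal1 (0.491, 0.226 to 0.956), St3gal1 (0.661, 0.346 to 1.18) and St3gal6 (0.60, 0.462 to 0.768). Mgat4b, the most abundant of the list, went from 293.4 CPM (WT lung) to 297.7 (Prf1-/- lung) and 209.3 (Prf1-/- bone).

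Of 17 measured glycoproteins that galectins are known to bind, 1 was higher in Prf1-/- lung than in WT lung, the integrin gene Itga6 (14.8 and 7.76 CPM, ratio 1.91, 1.23 to 3.03), against 0.71% of all genes, and 0 were lower. The list's median log2 ratio was 0.04. In Prf1-/- bone against Prf1-/- lung, 4 were lower and 1 higher, against 7.39% and 3.81% of all genes, with a median of -0.11 against -0.03 over all genes. Cd44, the hyaluronan receptor, was at 143.9 and 241.2 CPM (ratio 0.597, 0.508 to 0.697), and Cd47 (0.541, 0.400 to 0.719), Tfrc (0.625, 0.418 to 0.908) and Itga6 (0.572, 0.273 to 1.09) were the others. Lamc1, a laminin chain, was higher at 1.503 (0.956 to 2.31). Bsg and Lamp1, 2 abundant members, were at 702 and 375.6 CPM in WT lung and 752 and 405.6 CPM in Prf1-/- lung.

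Partners of galectins at damaged membranes, 10 measured, gave 0 past 1.5-fold in any comparison. Map1lc3b and Tax1bp1, which act in autophagy, were at 493.3 and 475.0 CPM in WT lung and 574.8 and 381.7 CPM in Prf1-/- bone. Of the p53 targets, relevant to Lgals7, 0 of 10 were past 1.5-fold between the lung sources and 5 of 11 were lower in Prf1-/- bone than in Prf1-/- lung, against 7.39% of all genes. The median log2 ratio of the p53 targets was 0.02 in the first comparison and -0.56 in the second, where that of all genes was -0.03. Cdkn1a, the cell cycle inhibitor p21, was at 146.2 CPM (WT lung), 170.1 (Prf1-/- lung) and 52.3 (Prf1-/- bone). Ccng1 (0.657), Zmat3 (0.413), Phlda3 (0.618) and Plk2 (0.514) were the others lower in Prf1-/- bone, where Lgals7 itself had a ratio of 0.933 (0.842 to 1.03). Bax, the most abundant of these targets, was at 461.3, 470.1 and 356.3 CPM.

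The cell cycle divided the galectin genes too. Cells were grouped by their UMIs over 20 genes of the G2 and M phases, and cells with 2 or more were deeper than those with 0 (medians 2886 and 2297 UMIs over the 4 sets). Lgals7 was at 763.8 CPM in WT lung cells with 0 such UMIs and 375.0 in those with 2 or more, a ratio of 0.491 (0.446 to 0.540). The ratio was 0.514 (0.464 to 0.569) in Prf1-/- lung, 0.705 (0.567 to 0.881) in Prf1-/- bone and 0.513 (0.489 to 0.538) in unlisted cells. A lower ratio than that of Lgals7 was found for 1.92% of genes in WT lung, 1.75% in Prf1-/- lung and 1.04% among unlisted cells, but for 20.9% in Prf1-/- bone, so Lgals7 did not stand out there. The median ratio of all genes was between 0.976 and 0.994 in the 4 sets. Lgals1 had ratios between 0.739 and 0.830, with 19.4% to 26.5% of genes lower. Lgals3bp (0.572 to 0.795), Lgals8 (0.606 to 0.827) and Lgals3 (0.186 to 0.936, the lowest on 5 and 9 UMIs in Prf1-/- bone) were below the median of all genes in each set. Lgals9 was so in 3 sets (0.776 to 0.894) and at 1.34 (0.779 to 2.43) in Prf1-/- bone. Some of these ratios had intervals that included 1 and were common among genes. They were Lgals3 in Prf1-/- lung (0.709 to 1.24, 42.1% of genes lower), Lgals8 in Prf1-/- bone (0.443 to 1.62, 32.6% lower) and Lgals9 in WT lung (0.710 to 1.13, 35.2% lower).

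**Figure D5:**
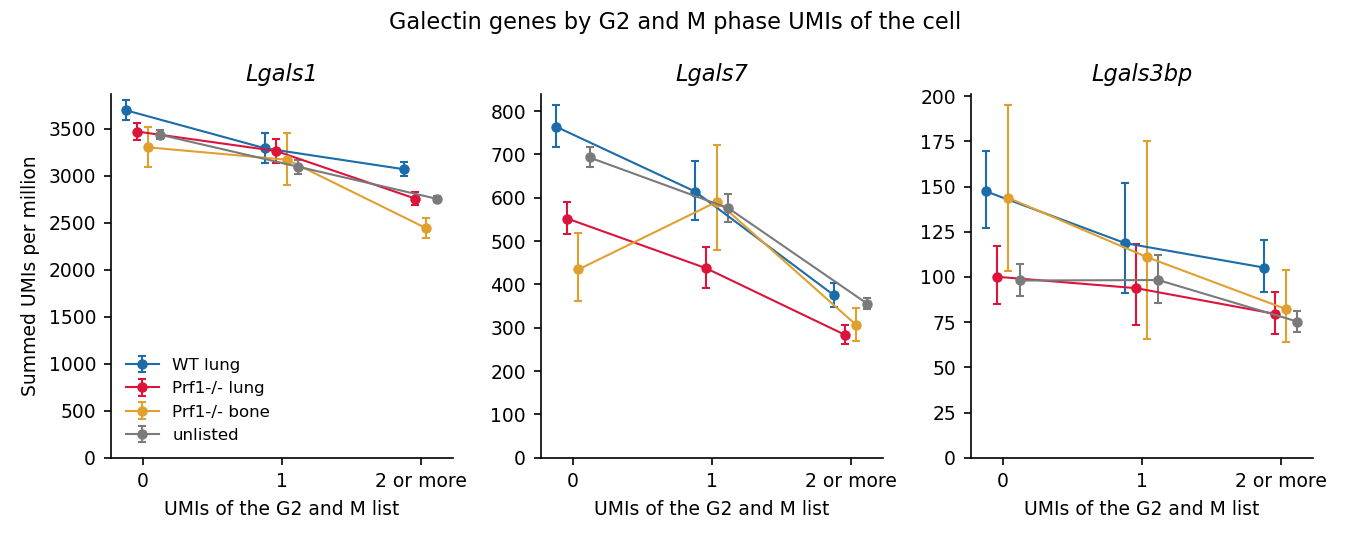
CPM of Lgals1, Lgals7 and Lgals3bp in cells with 0, 1 or 2 or more UMIs of 20 G2 and M genes, for each set, with exact 95% Poisson intervals. Lgals7 in WT lung goes from 763.8 to 375.0 CPM between the outer groups.

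The sets also differed in how many cells lay in each group. Cells with 2 or more G2 and M UMIs made up 46.2% of WT lung, 43.4% of Prf1-/- lung, 59.5% of Prf1-/- bone and 51.2% of unlisted cells. Within cells with 0 such UMIs, the ratio of Lgals7 to WT lung was 0.723 for Prf1-/- lung and 0.569 for Prf1-/- bone. Those of Lgals3 were 0.419 and 0.231. Between Prf1-/- bone and Prf1-/- lung, Lgals3 moved by more than 1.5 times: its ratio was 0.552 among cells with 0 G2 and M UMIs, on 9 UMIs in bone, and 0.110 among cells with 2 or more, on 5. Lgals7 was at 0.787 and 1.08 in the same groups, on either side of 1.

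RNA free in the droplets can add UMIs, and 77 barcodes with at least 10 UMIs of surfactant and club cell genes, and more of them than of melanoma genes, served as a reading of it. Their median depth was 580 UMIs. Of them, 3.90% (0.811% to 10.97%) had a Lgals7 UMI, against 21.5% of the 9402 cells of the 4 sets thinned to 580 UMIs. Lgals1 was found in 27.3% (17.7% to 38.6%) of them and in 79.1% of the thinned cells, and Lgals3bp in 2.60% (0.316% to 9.07%) and 5.35%. Lgals8 had 5.20% (1.43% to 12.8%), on 4 epithelial barcodes, and 2.41%, so its shares could not be told apart. Of these 4 barcodes, 2 were among the 5 that passed the filter, lay in the 4 sets and had a median depth of 2470 UMIs. In the 72 epithelial barcodes under the gene minimum the Lgals8 share was 2.78% (0.338% to 9.68%). Lung epithelium is itself known to make galectin-3, so these barcodes are no blank for Lgals3. The epithelial list summed to 202.6 CPM in WT lung, 13.3 in Prf1-/- lung, 19.2 in Prf1-/- bone and 31.1 in unlisted cells, led by Sftpc. Without cells holding 2 or more UMIs of other cell types, the ratio of Lgals9 between Prf1-/- lung and WT lung was 0.871 (0.872 with them). The part of free epithelial RNA in the Lgals3 and Lgals9 levels was not tested.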

How the data were processed

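The authors deposited raw UMI counts per gene and barcode from 1 pooled 10x 3' run, with hashtag counts in a second library; Cell Ranger 6.1.2, Seurat 4.3.0 and mm10 are named per the submitters' processing notes, and Cell Ranger 6.0.0 per the file headers. Barcodes with at least 1000 genes and at most 15% mitochondrial UMIs were kept and assigned by hashtag as described above. Doublets were screened by hashtag only: the 242 filtered barcodes with no clear hashtag were left out, and HTODemux singlets (3715 of the shared barcodes, with 473 doublets and 16 negatives) were an alternative. No caller working on the RNA was run, and unlisted barcodes could not be screened. UMIs were summed per set. Intervals were exact Poisson, Clopper-Pearson or conditional binomial at 95%. Likeness used Pearson residuals of a negative binomial with theta 100, leaving out mitochondrial, ribosomal protein and unnamed genes. Analyses used Python 3.11.15, numpy 2.4.6, scipy 1.17.1 and pandas 2.3.3, and Seurat 5.3.0 in R 4.3.3 for HTODemux. Scripts were tested on simulated data. The 6 genes and all lists were chosen with earlier results of these data known, so their differences are descriptions. Besides the 6, genes were named when they were among the 5 most or 2 least like a galectin gene, past 1.5-fold in a list, or among the 2 most abundant of a list. Cell type markers were named too, as were Kcnj13 and Spp1, which were not among the genes most or least like a galectin gene. Alternatives changed the hashtag rule, filters, depth, scaling and the cells included.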

Additional observations from a re-analysis of the deposited data

Results flagged for a closer look

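The shares of Lgals3 and Lgals9 were flagged in barcodes most of which the comparisons did not use. Of the 77 epithelial barcodes, 72 of them under the minimum of 1000 genes, 7.79% (2.91% to 16.2%) had a Lgals3 UMI, against 2.90% (2.57% to 3.26%) of the cells of the 4 sets thinned to the same median of 580 UMIs. A Lgals9 UMI was present in 10.4% (4.59% to 19.5%) of them and in 4.46% (4.05% to 4.89%) of the thinned cells. These shares rest on 6 and 8 barcodes, and the intervals overlapped for Lgals3 and for Lgals9, so no difference is read from them. The 5 epithelial barcodes that lay in the 4 sets held 0 UMIs of Lgals3 and of Lgals9. The melanoma gene Pmel had a UMI in 23.4% (14.5% to 34.4%) of the epithelial barcodes.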

How the results depend on the processing

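Each ratio was recomputed under 12 alternatives. Lgals3 stayed past 1.5-fold in all of them, at 0.419 to 0.544 for Prf1-/- lung against WT lung, 0.110 to 0.552 for Prf1-/- bone against Prf1-/- lung and 0.0597 to 0.231 for Prf1-/- bone against WT lung. Without the cell with the most Lgals3 UMIs in each group, the last ratio was 0.0728. The number of galectin genes past 1.5-fold kept within 1.5 times its value in 47 of 52 recounts. It was 2 at 1500 UMIs per cell for Prf1-/- lung against WT lung (Lgals3bp also lower, 0.666) and for Prf1-/- bone against WT lung (Lgals7 also lower, 0.659). It was 3 for Prf1-/- bone against WT lung among cells with 0 G2 and M UMIs (Lgals7 at 0.569 and Lgals9 at 0.591 also lower). With at least 2000 genes per cell it was 2 for Prf1-/- bone against Prf1-/- lung (47 and 145 cells, Lgals9 higher at 1.505) and 1 for unlisted against called cells (148 and 318 cells, Lgals3 lower at 0.559). The cause of these changes was not tested. Of the 5 genes most like each galectin gene, a rank correlation kept 4 for Lgals1 and Lgals3bp, 3 for Lgals7 and Lgals9, and 2 for Lgals3 and Lgals8. No paired analysis was possible because each source was a single hashtag group. With 18 Lgals3 UMIs in Prf1-/- bone, depth limits every statement on that gene there.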
